A study of Mus musculus with 8 samples.

Results

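The Frizzled genes Fzd1 to Fzd10 encode the Frizzled receptors of the mouse, and all 10 were taken by symbol from a count table of 22869 symbols. All 10 passed the filter on low counts, which left 14940 genes for testing. RNA was measured by total RNA sequencing, after ribosomal RNA had been removed, in hearts of C57BL/6 mouse embryos at E12.5. The tissues were the atrioventricular (AV) cushion, the swelling from which valves and septa form, and the ventricle. Each tissue was sampled from wild type and from mutant embryos, with 2 libraries in each of the 4 groups. The mutants carry the genotype label NfatC1+/-; KLF2fl/fl, in which both alleles of Klf2 are floxed. Klf2 encodes a transcription factor of endothelial cells that responds to blood flow, and Nfatc1 encodes one of the endocardium, the endothelial lining of the heart. The labels do not say whether +/- means that 1 Nfatc1 copy is lost or that it carries a recombinase. They call the controls wild type, whereas the design text sets KLF2 fl/fl mice beside the mutants, so the controls may carry the floxed alleles too. It is not stated whether both libraries of a group are from different embryos or litters. A p-value here therefore measures only how these samples spread, and that spread may be technical.

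Frizzled receptors are membrane proteins that bind WNT ligands through a cysteine-rich extracellular domain. Together with the co-receptors Lrp5 or Lrp6 they act through Dishevelled proteins to stabilise β-catenin, which turns on genes with TCF/LEF factors, and some of them also take part in planar cell polarity. In the AV cushion, endocardial cells make WNT ligands, and β-catenin signalling is known to act in the formation and growth of the cushion mesenchyme. By protein sequence the receptors fall into the subfamilies Fzd1, Fzd2 and Fzd7; Fzd5 and Fzd8; Fzd9 and Fzd10; Fzd3 and Fzd6; and Fzd4 alone.

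The 250 bases before the annotated start of transcription are shown for 3 receptors that were higher in cushion than in ventricle in both genotypes (Fzd1, Fzd7 and Fzd10) and for Fzd5, which was lower in wild type cushion. The sequences are from RefSeq on GRCm38.p6, and promoters of 6 of the 10 members were used. The first bases after the start used are in a GENCODE transcript for Fzd5 and Fzd10 but in none for Fzd1 and Fzd7, so for those receptors the start differs between the annotations. Fzd1 is at chr5:4758217-4758466 and Fzd5 at chr1:64737751-64738000, both on the minus strand, and Fzd7 is at chr1:59481897-59482146 and Fzd10 at chr5:128600856-128601105, both on the plus strand. Each is written 5′ to 3′ on the strand of the gene. Capitals mark CTTTG or its reverse complement CAAAG, the core of TCF/LEF sites, and CACCC or its reverse complement GGGTG, the core of sites of KLF factors.
Fzd1: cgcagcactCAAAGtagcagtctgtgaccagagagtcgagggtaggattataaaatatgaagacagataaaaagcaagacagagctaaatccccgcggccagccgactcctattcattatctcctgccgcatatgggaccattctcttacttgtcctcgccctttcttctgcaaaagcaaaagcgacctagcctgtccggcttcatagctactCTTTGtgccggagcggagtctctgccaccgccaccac
Fzd7: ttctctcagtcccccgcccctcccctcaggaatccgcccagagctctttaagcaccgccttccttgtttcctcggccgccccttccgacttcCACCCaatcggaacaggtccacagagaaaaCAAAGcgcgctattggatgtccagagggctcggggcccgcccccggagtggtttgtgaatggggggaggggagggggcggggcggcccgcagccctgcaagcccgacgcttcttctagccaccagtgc
Fzd10: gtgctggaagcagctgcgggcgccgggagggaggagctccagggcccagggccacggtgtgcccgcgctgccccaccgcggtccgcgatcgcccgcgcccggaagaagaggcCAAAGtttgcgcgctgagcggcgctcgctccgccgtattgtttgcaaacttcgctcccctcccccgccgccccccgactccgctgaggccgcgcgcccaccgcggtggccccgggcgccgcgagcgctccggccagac
Fzd5: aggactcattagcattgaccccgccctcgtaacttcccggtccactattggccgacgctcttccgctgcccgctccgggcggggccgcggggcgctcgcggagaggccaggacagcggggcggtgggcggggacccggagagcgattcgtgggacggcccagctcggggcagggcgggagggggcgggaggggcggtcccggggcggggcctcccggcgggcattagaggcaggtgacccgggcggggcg

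CTTTG, on either strand, was found 2 times in the Fzd1 window, 1 time each in those of Fzd7 and Fzd10, and 0 times in those of Fzd4, Fzd5 and Fzd9. CACCC was found 1 time each in the windows of Fzd4, Fzd7 and Fzd9 and 0 times in those of Fzd1, Fzd5 and Fzd10. Of 32851 promoter windows of the same length, 48.6% held CTTTG and 52.0% held CACCC, so that either motif is common in windows of this length. These matches describe letters and not binding sites. The windows of Fzd5 and Fzd10 were both 76.4% G and C and that of Fzd1 51.2%, although Fzd1 and Fzd10 were both higher in cushion.

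Library totals ran from 18955733 to 26579215 counts, and 1 CPM (count per 1000000 after scaling) stood for between 18.71 and 25.27 reads. Klf2 was at 17.3 and 12.9 CPM in wild type cushion, 1.96 and 0.651 in mutant cushion, 11.7 and 9.19 in wild type ventricle, and 0.735 and 0.625 in mutant ventricle. The labels and the level of the targeted gene therefore went together in all 8 libraries. One cushion library, mutant replicate 2, lay away from the rest: its position on the first principal component was -22.82, where the other 3 lay between -54.93 and -46.32. Its summed level of 5 ventricular chamber markers was 4320 CPM, against 2260 to 3560 CPM in the other cushions. Its cardiomyocyte sum of 28200 CPM lay within the 26300 to 44200 CPM of the others. Its endothelial and endocardial sum was 1700 CPM against 1360 to 1450, and its leukocyte sum 144 CPM against 72.8 to 105. What sets this library apart was not tested. Where a call changed without this library both values are given.

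Per kilobase of the longest annotated transcript, Fzd1 had the highest RNA level of the family in all 4 groups. It stood at 34.4 CPM per kb in wild type cushion, between 30.2 and 38.6 in the 2 libraries, and at 14.2 CPM per kb in wild type ventricle. In wild type cushion Fzd2 (12.1 CPM per kb) and Fzd3 (11.8) came next and overlapped with each other, then Fzd6 (9.37) and Fzd7 (8.65), which also overlapped. Fzd4 (5.01) and Fzd8 (3.10) followed, each apart from its neighbours. Fzd10 (2.03) and Fzd9 (1.54) overlapped, and Fzd5 was lowest at 1.13 CPM per kb. In wild type ventricle the order below Fzd1 was Fzd3 (9.11 CPM per kb), then Fzd6 (6.85), Fzd4 (6.39) and Fzd2 (6.28), whose neighbours overlapped. Fzd8 (3.79) came next, then Fzd5 (1.95), Fzd7 (1.88) and Fzd9 (1.51), whose neighbours overlapped, and Fzd10 was lowest at 0.246 CPM per kb. In mutant cushion the order began with Fzd1 (36.7 CPM per kb) and Fzd3 (11.8) and ended with Fzd10 (0.895), which lay below both Fzd5 (1.31) and Fzd9 (1.27). In mutant ventricle it began with Fzd1 (13.3 CPM per kb) and Fzd3 (7.76) and also ended with Fzd10 (0.0829). The order depends on the transcript length used: for Fzd6 the longest transcript has 4325 bases and the median one 750, and with median lengths Fzd6 would lead the family with 37.2% of its summed level in wild type cushion, against 23.6% for Fzd1. In wild type ventricle, with median lengths, Fzd6 (42.07%) and Fzd3 (18.65%) would both lie above Fzd1 (15.03%).

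The make-up of the family differed between the tissues. Fzd1 made up 40.46% and 36.45% of the summed Frizzled CPM per kb in the wild type cushions and 27.57% and 26.68% in the wild type ventricles. Fzd7 made up 8.52% and 11.05% in the wild type cushions and 3.98% and 3.16% in the wild type ventricles. Fzd4 had the opposite pattern, with 5.42% and 5.84% in the wild type cushions and 12.08% and 12.45% in the wild type ventricles. The summed Frizzled level was 95.4 and 82.9 CPM per kb in wild type cushion and 106.3 and 73.5 in mutant cushion, and it was lower in every ventricle, at 55.8 and 48.6 in wild type and 52.7 and 44.7 in mutants. These sums were not tested.

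**Figure D1:**
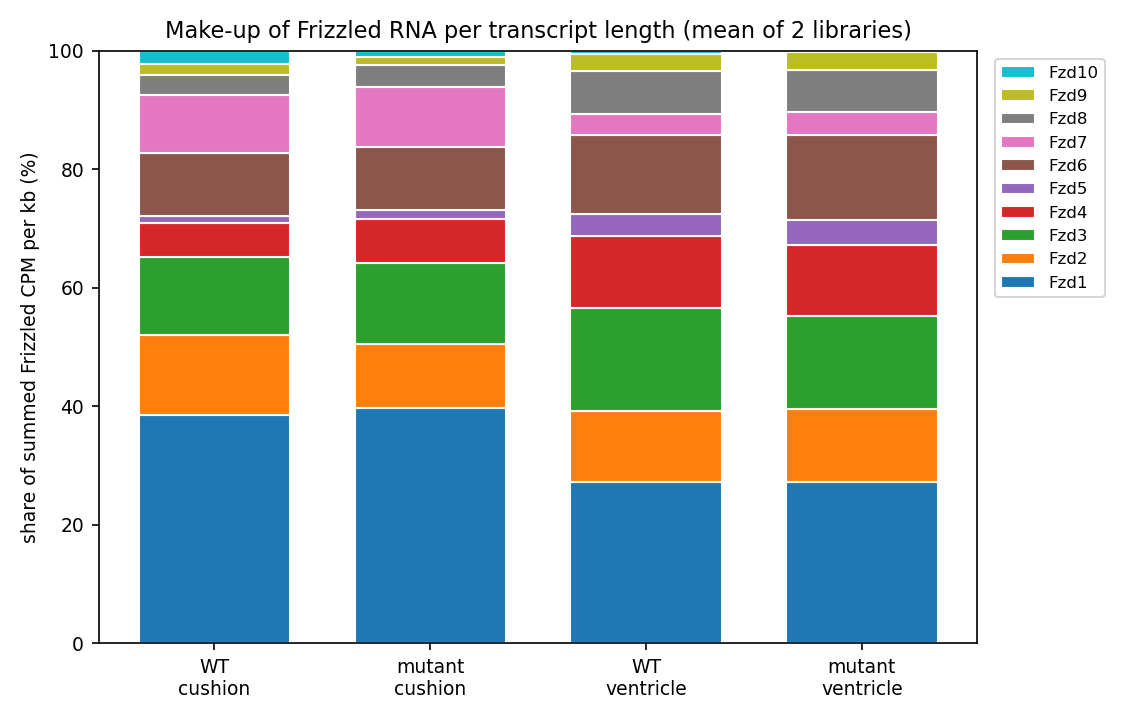
Share of each receptor in the summed Frizzled RNA level (CPM per kb of the longest transcript, in percent; vertical axis), as the mean of 2 libraries, in the 4 groups on the horizontal axis. Fzd1 takes the largest share in each group, 38.5% in wild type cushion and 27.1% in wild type ventricle, and Fzd7 takes 9.78% and 3.57%.

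The first comparison asks where in the wild type heart each receptor is higher. Fzd1, Fzd2, Fzd7 and Fzd10 were higher in cushion than in ventricle and Fzd5 was lower, by edgeR's quasi-likelihood test with Benjamini-Hochberg adjustment over all genes. That is 5 of 10 members, where 23.1% of all genes tested passed in either direction. The median log2 difference of the 10 members was 0.42, against 0.01 over all genes tested. With the replicate number as a further term in the model (the replicate block), Fzd3 and Fzd6 also passed as higher and Fzd4 as lower. The members called then numbered 8 of 10, against 41.4% of all genes. The libraries of the tissues did not overlap for 6 members that were higher in cushion and 3 that were lower, 9 of 10 in all, where 65.3% of all genes were so separated. With the correction for GC content and length alone, added after seeing the data, the number stayed at 5, but Fzd3 (0.51, adjusted p = 0.0112) and Fzd4 (-0.46, adjusted p = 0.0197) passed in place of Fzd1 and Fzd2. The share of all genes called by that fit is not given here, so this count cannot be set against it. The mutant libraries give the same comparison in other samples, although 1 fit estimates the spread over all 8 libraries and the replicate numbers deviate together across the genotypes. In mutants, 3 of 10 members passed, against 9.42% of all genes: Fzd1, Fzd7 and Fzd10, all higher in cushion. With the replicate block 7 of 10 passed, 6 of them higher, against 23.9% of all genes. The mutant libraries of the tissues were separated for 7 members, against 53.1% of all genes. In RNA from whole tissue, more cells of a type and more RNA per cell cannot be told apart.

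**Figure D2:**
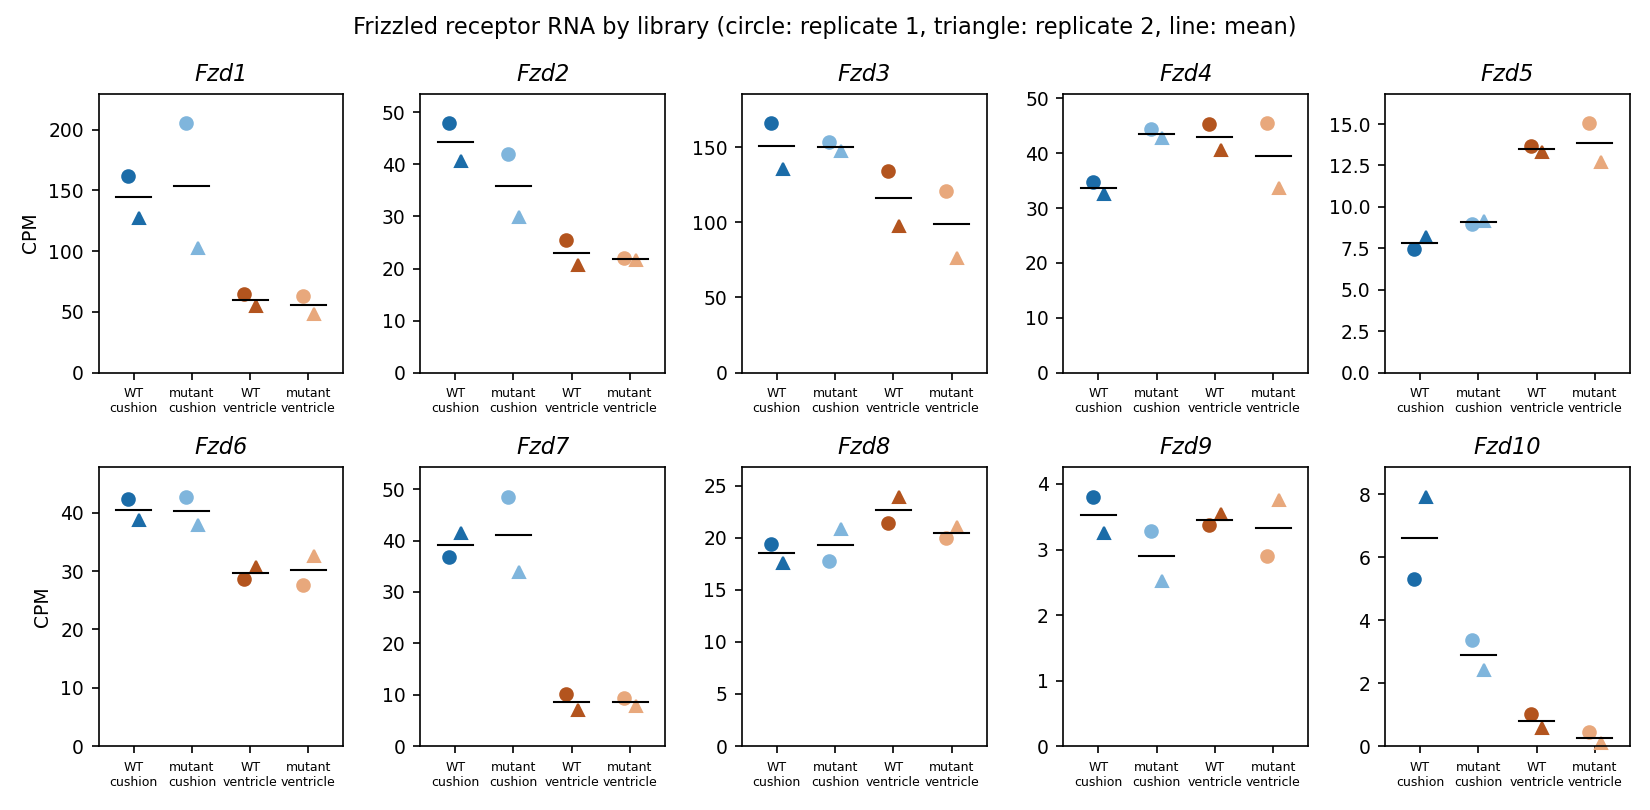
Level of each Frizzled gene (CPM, linear axes starting at 0) in the 8 libraries, 2 per group, with a line at each group's mean. Fzd1, Fzd2, Fzd3, Fzd6, Fzd7 and Fzd10 lie higher in all cushions than in all ventricles, Fzd3 by a narrow margin, and Fzd5 lies lower in all cushions.

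Fzd7, a receptor for β-catenin signalling in embryos and stem cells, had the smallest adjusted p of the 10 for the difference between the tissues in both genotypes. It was at 36.9 and 41.5 CPM in the wild type cushions, 48.5 and 33.8 in the mutant cushions, 10.05 and 6.97 in the wild type ventricles and 9.28 and 7.72 in the mutant ventricles. Every cushion was thus more than 3 times above every ventricle. Fzd7 was 4.60-fold higher in wild type cushion (log2 difference 2.20 ± 0.24 SE, adjusted p = 0.000998, edgeR) and 4.83-fold higher in mutant cushion (2.27 ± 0.24, adjusted p = 0.00179, edgeR). Leaving out any one library kept both calls, with an adjusted p of at most 0.0244 in wild type and 0.0124 in mutants.

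Fzd1 was at 162 and 127 CPM in the wild type cushions, 205 and 103 in the mutant cushions, 64.5 and 54.4 in the wild type ventricles and 63.3 and 48.6 in the mutant ventricles. The cushions again lay above all ventricles, but the 2 mutant cushions spanned the widest range of any group. Fzd1 was 2.43-fold higher in wild type cushion (log2 difference 1.28 ± 0.32 SE, adjusted p = 0.0311, edgeR). In mutant cushion it was 2.75-fold higher (1.46 ± 0.33, adjusted p = 0.0363, edgeR). Leaving out any 1 of the 4 wild type libraries ended the wild type call, with adjusted p from 0.0734 to 0.16, and so did a correction for GC content and length without the replicate term (0.87, adjusted p = 0.073), whereas the call held with both (0.85, adjusted p = 0.00331). In mutants, leaving out mutant cushion replicate 2 gave 1.87 (adjusted p = 0.00412), leaving out mutant cushion replicate 1 gave 0.87 (adjusted p = 0.109), and each other library left out also ended the call, with adjusted p up to 0.207. A fit of the 2 mutant groups alone ended it too (1.43, adjusted p = 0.0915).

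Fzd2, the other member of the subfamily of Fzd1 and Fzd7, was at 47.9 and 40.7 CPM in the wild type cushions and 25.4 and 20.6 in the wild type ventricles. It was at 41.9 and 29.9 CPM in the mutant cushions and 22.1 and 21.6 in the mutant ventricles. The tissues did not overlap in either genotype. Fzd2 was 1.92-fold higher in wild type cushion (log2 difference 0.94 ± 0.19 SE, adjusted p = 0.0111, edgeR), but the correction for GC content and length moved this to 0.50 with the replicate block (adjusted p = 0.00218) and 0.51 without it (adjusted p = 0.0697). The wild type call ended without wild type cushion replicate 1 (adjusted p = 0.0644) and without wild type ventricle replicate 2 (adjusted p = 0.103). In mutants the difference of 0.72 ± 0.19 missed the threshold (adjusted p = 0.0506, edgeR), and it passed with the replicate block (0.70, adjusted p = 0.00156) and without mutant cushion replicate 2 (0.94, adjusted p = 0.0259).

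Fzd10, a receptor with a restricted pattern in embryos, had the largest fold difference between the tissues among the 10 and was the least abundant in ventricle. It had 113 and 200 reads in the wild type cushions, 69 and 56 in the mutant cushions, 19 and 11 in the wild type ventricles, and 11 and 2 in the mutant ventricles. In CPM these were 5.31 and 7.91, 3.38 and 2.43, 1.02 and 0.581, and 0.449 and 0.0893. Each cushion library was above each ventricle library, and each wild type library above each mutant library of the same tissue. Fzd10 was 8.25-fold higher in wild type cushion than in wild type ventricle (log2 difference 3.04 ± 0.49 SE, adjusted p = 0.00467, edgeR) and 10.3-fold higher in mutants (3.37 ± 0.57, adjusted p = 0.0102, edgeR). The wild type call ended without wild type ventricle replicate 2 (2.70, adjusted p = 0.0659) and the mutant call without mutant cushion replicate 1 (3.12, adjusted p = 0.0634). With only 11 and 2 reads in the mutant ventricles, the mutant difference moved to 4.90 without mutant ventricle replicate 1 and to 2.67 without mutant ventricle replicate 2. Its relative Fzd9 lay between 2.52 and 3.80 CPM in all 8 libraries, with a wild type difference of 0.03 ± 0.26 (95% interval -0.57 to 0.63).

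Fzd5, a receptor of β-catenin signalling needed for blood vessels of the yolk sac and placenta, was called higher in wild type ventricle by edgeR without further terms, the only member of the 10 so called. It was at 7.47 and 8.19 CPM in the wild type cushions, 8.98 and 9.16 in the mutant cushions, 13.7 and 13.3 in the wild type ventricles and 15.0 and 12.7 in the mutant ventricles. All 4 ventricles lay above all 4 cushions. In wild type Fzd5 was lower in cushion by a log2 difference of -0.78 ± 0.17 SE (adjusted p = 0.0138, edgeR), a 1.72-fold higher level in ventricle. Leaving out any 1 of the 4 wild type libraries ended this call, with adjusted p from 0.0522 to 0.0818, while the difference stayed between -0.85 and -0.73. In mutants the difference was -0.61 ± 0.17 (adjusted p = 0.0546, edgeR; 0.016 with the replicate block). Fzd8, of the same subfamily, was at 19.4 and 17.6 CPM in the wild type cushions and 21.4 and 23.9 in the wild type ventricles, and its difference of -0.29 ± 0.15 did not pass (adjusted p = 0.191, edgeR). Fzd8 passed in wild type where the replicate block was combined with the correction for GC content and length (-0.56, adjusted p = 0.00545).

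Fzd3 and Fzd6, known for planar cell polarity in axon guidance and hair patterning, differed less between the tissues. Fzd3 was at 166 and 136 CPM in the wild type cushions and 134 and 97.9 in the wild type ventricles, so that the tissues were separated by a narrow margin. Its wild type difference of 0.38 ± 0.24 did not pass (adjusted p = 0.277, edgeR) but did with the replicate block (0.39, adjusted p = 0.0311). Fzd6 was at 42.3 and 38.8 CPM in the wild type cushions and 28.6 and 30.6 in the wild type ventricles, with a difference of 0.45 ± 0.14 just outside the threshold (adjusted p = 0.0511, edgeR; 0.0142 with the replicate block). In mutants Fzd3 differed by 0.61 ± 0.24 (adjusted p = 0.155; 0.00285 with the replicate block) and Fzd6 by 0.42 ± 0.14 (adjusted p = 0.105; 0.0306 with the replicate block), by edgeR. Without mutant cushion replicate 2 the mutant differences of Fzd3, Fzd5 and Fzd6 passed with the block (adjusted p = 0.0331, 0.0346 and 0.0185) and not without it (adjusted p = 0.28, 0.143 and 0.14). Fzd4, the receptor for Norrin in blood vessels of the retina, was at 34.7 and 32.5 CPM in the wild type cushions and 45.3 and 40.7 in the wild type ventricles. Its wild type difference of -0.35 ± 0.16 did not pass (adjusted p = 0.145, edgeR; 0.0384 with the replicate block), and it was -0.46 with the correction for GC content and length, with the block (adjusted p = 0.00271) or without it (adjusted p = 0.0197).

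**Figure D3:**
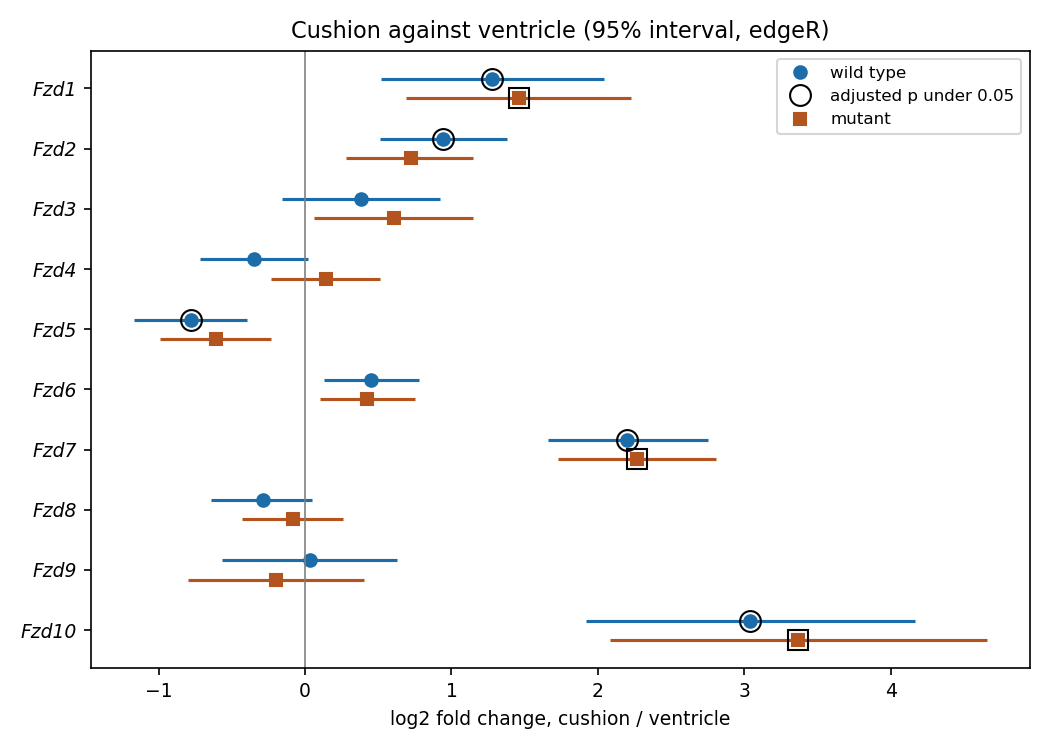
Log2 fold change of cushion over ventricle (horizontal axis; bars are 95% intervals from edgeR) for the 10 Frizzled genes in wild type (circles) and mutant hearts (squares), from separate libraries. Open outlines mark an adjusted p under 0.05: 5 genes in wild type and 3 in mutants, with Fzd10 and Fzd7 farthest to the right.

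Some cell type markers differed between the wild type tissues, where 23.1% of all genes tested passed, and 41.4% with the replicate block. Without the block, the counts for the endothelial, cardiomyocyte, leukocyte and erythroid lists were near that share. Of 8 cushion mesenchyme markers, 3 were higher in wild type cushion (8 with the replicate block), and their summed level was 9870 to 19900 CPM against 2390 to 5340 CPM in wild type ventricle. Of 5 ventricular chamber markers, 4 were lower in wild type cushion (5 with the replicate block), with sums of 2970 to 3560 CPM against 7480 to 9070 CPM. Of 9 endothelial and endocardial markers 2 were lower (2 lower and 1 higher with the block), with sums of 1370 to 1450 CPM against 1780 to 1960 CPM. Of 10 cardiomyocyte markers 2 were lower (4 lower and 1 higher with the block), and their sums overlapped, at 26300 to 44200 CPM against 36500 to 97500 CPM. Within each replicate number that sum was lower in cushion, at 44200 against 97500 CPM and 26300 against 36500 CPM. The epicardial list had 1 higher and 2 lower of 7 (1 higher and 4 lower with the block), with sums of 208 to 251 against 308 to 315 CPM. The erythroid list had 1 higher of 5, Epor, and with the block 1 higher and 4 lower, with sums of 714 to 1690 against 2200 to 6240 CPM. For leukocytes 1 of 5 was higher, 2 with the block (72.8 to 105 against 67.4 to 75.1 CPM), and for neural crest and neural cells 1 of 3 tested, with Foxd3 at 0 in all libraries (9.62 to 12.8 against 9.09 to 11.4 CPM). The part of these cell types in the Frizzled differences was not tested.

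The comparison that the design text names is mutant against wild type cushion. Among the Frizzled genes 0 of 10 passed by edgeR, where 0% of all genes tested passed. DESeq2, limma-voom and edgeR with the replicate block also called 0 of 10, and the replicate block called 0.863% of all genes. At an unadjusted p under 0.05 there were 2 members, Fzd10 and Fzd4, against 11.4% of all genes. With the replicate block there were 3, Fzd10, Fzd4 and Fzd2, against 23.8% of all genes. Without mutant cushion replicate 2 and without the block, the differences of Fzd10, Fzd4 and Fzd2 were -0.97, 0.40 and -0.08. The median log2 difference of the 10 was 0.03, against -0.01 over all genes. Of the cell type lists, epicardial markers had a summed level of 208 to 251 CPM in wild type and 284 to 351 CPM in mutant cushion, with 0 of 7 called (1 higher with the replicate block). Cushion mesenchyme markers overlapped, at 9870 to 19900 against 9180 to 15900 CPM, with 0 of 8 called (1 lower with the block, Col1a1). Within each replicate number their sum was lower in mutants, at 19900 against 15900 CPM and 9870 against 9180 CPM. Without mutant cushion replicate 2 the block called 3 epicardial markers and 2 erythroid ones (Hbb-y and Alas2) higher in mutants, 2 cardiomyocyte markers (Actn2 and Nppa) and 1 chamber marker (Irx4) lower, and Col1a1 no longer (adjusted p = 0.052, edgeR). The share of all genes called by the block without that library is not given here, so these marker counts cannot be set against it. The part of the cell types was not tested.

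Fzd10 had the largest difference between the genotypes in cushion, at 5.31 and 7.91 CPM in wild type and 3.38 and 2.43 CPM in mutants. The log2 difference was -1.19 ± 0.43 SE (adjusted p = 0.435, edgeR), with a 95% interval of -2.16 to -0.22. With the replicate block it was -1.22 (adjusted p = 0.0866) and without mutant cushion replicate 2 it was -0.97 (adjusted p = 0.885), so the call was not made in any of these fits. In ventricle, where other libraries are compared, Fzd10 was at 1.02 and 0.581 CPM in wild type and 0.449 and 0.0893 in mutants, a log2 difference of -1.52 ± 0.64 (adjusted p = 0.998, edgeR). That value rests on 11 and 2 reads in the mutants: it was -0.82 without mutant ventricle replicate 2 and -3.07 without mutant ventricle replicate 1.

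Fzd4 was at 34.7 and 32.5 CPM in the wild type cushions and 44.3 and 42.8 in the mutant cushions, which did not overlap. The 4 ventricles ranged from 33.6 to 45.4 CPM. The log2 difference in cushion was 0.37 ± 0.16 SE (adjusted p = 0.438, edgeR; adjusted p = 0.109 with the replicate block). Without mutant cushion replicate 2 it was 0.40 (adjusted p = 0.885, edgeR), and 0.28 with the block (adjusted p = 0.446). In ventricle it was -0.12 ± 0.16 (adjusted p = 0.998, edgeR). The difference between the tissues in the genotype effect was 0.49 ± 0.23 (adjusted p = 0.423, edgeR; adjusted p = 0.121 with the replicate block), the smallest p of the 10 for that interaction. It was 0.52 without mutant cushion replicate 2 (adjusted p = 0.692, edgeR). Fzd5 also did not overlap between the genotypes in cushion, at 7.47 and 8.19 against 8.98 and 9.16 CPM, with a difference of 0.21 ± 0.17 (adjusted p = 0.602, edgeR). In all, 3 of 10 members were separated in cushion, against 48.4% of all genes.

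For the receptors that were higher in cushion, the 95% interval of the genotype difference in cushion, on the log2 scale, ran from -0.66 to 0.84 for Fzd1, from -0.73 to 0.13 for Fzd2 and from -0.43 to 0.57 for Fzd7. Fzd2 had a difference of -0.30 ± 0.19, which was -0.03 after the correction for GC content and length with the replicate block. These differences were 0.51 for Fzd1, -0.08 for Fzd2 and 0.31 for Fzd7 without mutant cushion replicate 2. The narrowest intervals were those of Fzd6, from -0.33 to 0.32, and Fzd8, from -0.28 to 0.41. The wild type tissue difference of Fzd7, 2.20, lay outside its genotype interval in cushion, as did the 95% interval of that difference, 1.66 to 2.75. For Fzd1 the tissue difference of 1.28 lay outside too, but its 95% interval, 0.52 to 2.04, overlapped the genotype interval. Regardless of sign, the tissue interval of Fzd2, 0.51 to 1.38, overlapped its genotype interval in size. So did that of Fzd10, 1.92 to 4.17, with a genotype interval of -2.16 to -0.22. The tissue and the genotype difference share the wild type cushion libraries, so they are not independent. With the block and the correction for GC content and length, the tissue difference of Fzd1 was 0.85 and its genotype difference 0.30. In ventricle 0 of 10 members passed by edgeR, DESeq2, limma-voom or the replicate block, where 0% of all genes passed by edgeR and 0.00669% with the block. At an unadjusted p under 0.05 there was 1, Fzd10, against 2.29% of all genes. The genotypes were separated in ventricle for Fzd8 and Fzd10, both lower in mutants, 2 of 10 against 27.7% of all genes. The interaction of genotype and tissue also gave 0 of 10 by edgeR, DESeq2 and limma-voom, where 0% of all genes passed by edgeR. It had 0 members at an unadjusted p under 0.05, against 11.9% of all genes, and 1 with the replicate block, against 24.1%.

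**Figure D4:**
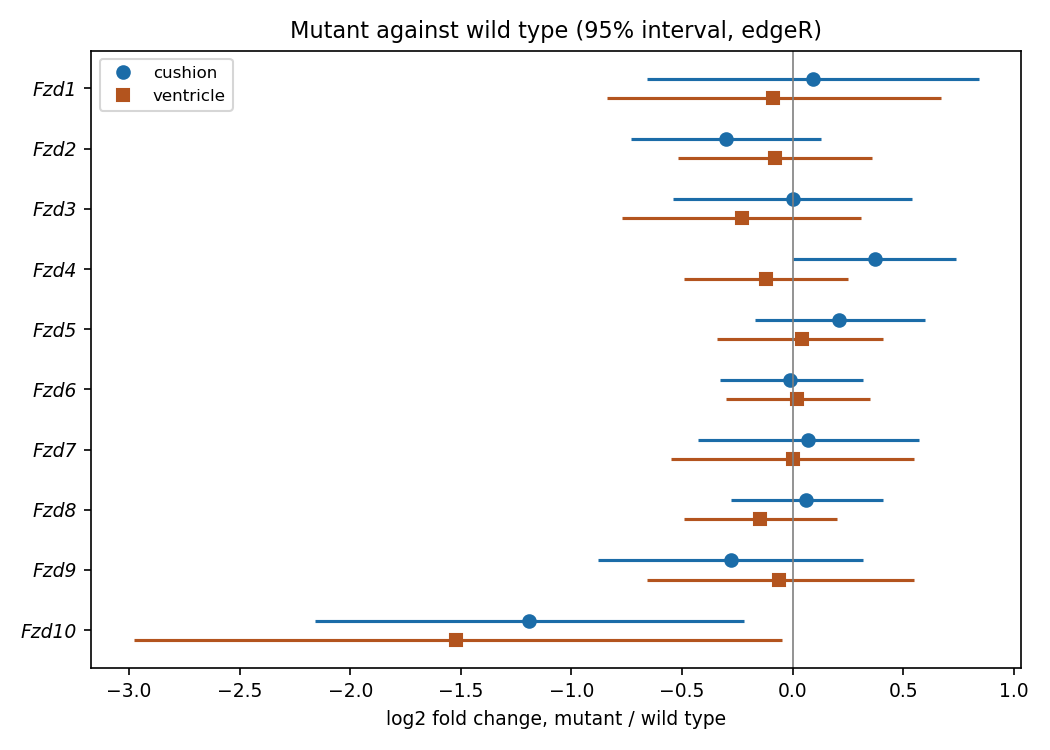
Log2 fold change of mutant over wild type (horizontal axis; bars are 95% intervals from edgeR) for the 10 Frizzled genes in cushion (circles) and ventricle (squares). Most values lie near 0, Fzd10 lies to the left in both tissues at -1.19 and -1.52, and 0 genes passed after adjustment in either tissue.

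Genes that work with the Frizzled receptors are given by list, for wild type cushion against ventricle by edgeR first, where 23.1% of all genes tested passed. Of the co-receptors, Lrp5 was higher in cushion (log2 difference 1.16 ± 0.29, adjusted p = 0.0261) and Lrp6 was not called (0.31 ± 0.29, adjusted p = 0.468). Of 4 other WNT receptors tested 1 was higher, Ptk7, a receptor of planar polarity (1.20 ± 0.21, adjusted p = 0.00629). Of 4 partners of Fzd4 and of the Wnt7 receptor complex, 3 were higher and 1 lower. Ndp, which encodes Norrin, was at 5.68 and 3.13 CPM in cushion and 0.27 and 0.21 CPM in ventricle (4.17 ± 0.51, adjusted p = 0.00159). Tspan12, which assists Norrin at Fzd4, was lower in cushion (-0.78 ± 0.19, adjusted p = 0.0217), and so the ligand and its helper differed in opposite directions while Fzd4 itself was called only with the replicate block or the correction for GC content and length. Gpr124 (0.95) and Reck (0.92), the partners for Wnt7, were higher.

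Among 8 genes tested of Frizzled turnover and R-spondin signalling, 4 were higher and 1 lower in wild type cushion. Rnf43, a ligase that removes Frizzled receptors from the cell surface, was 4.03 ± 0.50 higher (adjusted p = 0.00167, edgeR). It was at 4.51 and 2.65 CPM in cushion and 0.16 and 0.26 CPM in ventricle, so the size of its difference rests on few ventricle reads. Rspo3, which restrains that removal, was 3.17 ± 0.56 higher (adjusted p = 0.0143, edgeR), and the R-spondin receptor Lgr4 was lower (-0.95 ± 0.16, adjusted p = 0.00534, edgeR). Of 5 secreted Frizzled-related genes, whose products bind WNT ligands outside the cell, 2 were higher, Frzb (2.07) and Sfrp4 (2.71). Frzb was at 30.9 and 22.2 CPM in cushion and 7.11 and 5.54 CPM in ventricle. Sfrp4 was barely detected, at 0.47 and 0.63 CPM in cushion and 0.11 and 0.05 CPM in ventricle, so its difference rests on few reads. Smo, the hedgehog pathway relative of the Frizzled receptors, was higher (1.08 ± 0.15, adjusted p = 0.0029, edgeR), 0 of 3 Dishevelled genes were called, and 2 of 6 planar polarity partners tested were higher, Vangl1 (0.77) and Vangl2 (0.90). Of 10 WNT ligands tested 7 were higher and 1 lower, among them Wnt9b (4.13) and Wnt4 (2.71), and their median was 1.95 against 0.01 over all genes. Of 13 feedback targets of β-catenin signalling 11 were higher, such as Axin2 (3.07), Notum (5.39) and Apcdd1 (3.33), with a median of 2.36. Notum was at 0.53 and 0.21 CPM in ventricle, so the size of its difference also rests on few reads there. Rnf43, Znrf3 and Lgr5 are in both the turnover and the target list.

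In mutant against wild type cushion 0 genes of these lists passed by edgeR. With the replicate block the calls were all lower in mutants: Lrp5 (-0.74, adjusted p = 0.0252), Ndp (-1.84, adjusted p = 0.0361), 2 of 10 ligands, Wnt9b (-2.32, adjusted p = 0.000499) and Wnt16 (-1.45, adjusted p = 0.0164), and 5 of 13 feedback targets, among them Apcdd1 (-1.47, adjusted p = 2.86e-05), Notum (-2.13, adjusted p = 0.000499) and Nkd1 (-1.15, adjusted p = 0.00626). Lrp5 was not called once the correction for GC content and length was added (adjusted p = 0.105). Without mutant cushion replicate 2 the block still called Lrp5 (-0.67, adjusted p = 0.0493), Ndp (-2.59, adjusted p = 0.00417), both ligands and all 5 targets, and it also called the ligand Wnt5a, higher in mutants (0.65, adjusted p = 0.0164, edgeR). The members of the lists on other WNT receptors, Frizzled turnover, secreted Frizzled-related proteins, Smo, Dishevelled and planar polarity were not called with the block. With the block 0 of 10 Frizzled receptors were called, which is near the share of all genes called, 0.863%. Fzd10 was at -1.22 with the block (adjusted p = 0.0866, edgeR). The calls on these lists lay among ligands, 1 co-receptor and targets. Whether the receptors differ from those genes in their response was not tested.

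The genes whose log2 CPM followed each receptor most closely over the 8 libraries were sought among 12586 genes with a mean of at least 1 CPM in a group. The 8 points fall into 2 tissues and share their libraries, so this likeness is a description. For Fzd1 these were Fam110b (Pearson r = 0.996), Snx18 and Zfp185, and for Fzd7 Tceal3, Zfp828 and Dem1 (r = 0.996 each). For Fzd2 they were Lrrc32 (r = 0.994), Igsf3 and Esyt1, for Fzd10 Rgs9 (r = 0.991), Spsb1 and Oprk1, and for Fzd5 Slc25a43 (r = 0.988), Sema3a and Pcdh7. Fzd3 was followed by Atp8a1 (r = 0.986), Mfap3 and Secisbp2l, Fzd6 by Fstl1 (r = 0.985), Gas2 and H1f0, and Fzd4 by Smc3 (r = 0.977), Zbtb11 and Rad50. Fzd8 was followed by Ndufab1 (r = 0.976), Extl2 and Mthfd2l, and Fzd9 by Fbxl15 (r = 0.966), Ctsw and Pde1b. Replicate 1 was above replicate 2 in all 4 groups for Fzd1, Fzd2, Fzd3 and Fzd4, which is 4 of 10 members against 19.1% of all genes.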

How the data were processed

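Libraries were made from column-purified total RNA of both tissues with a stranded kit after ribosomal RNA removal, per the labels' protocols. Bowtie 0.12.7 and mm9 are named in the submitters' processing notes. How reads were counted, with which annotation and strand setting, is not given in the sources used here, so genes that overlap on opposite strands are uncertain. The authors deposited raw counts, which were used unchanged. All 8 tables were identical, so a single copy was read and its columns were matched to samples by title (0 columns were left unused). For the 3705 of 22869 symbols found on several rows, the row of highest total stood for the symbol. Fzd5 and Fzd6 are each on 2 identical rows.

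Counts were tested with edgeR 4.0.16 (TMM scaling, filter by expression, robust quasi-likelihood fit over all 8 libraries in 4 groups, two-sided, Benjamini-Hochberg over 14940 genes, threshold 0.05) for 5 contrasts, and the fit was checked on simulated counts. Alternatives were DESeq2 1.42.0, its size factors, limma-voom (limma 3.58.1), no filter, summed rows, only the groups compared, each library left out, the replicate block and, added after seeing the data, a correction for GC content and length without the block and the block without mutant cushion replicate 2. The correction, also run with the block, subtracts a spline fitted in each library. Lengths and GC content are from GENCODE vM21 (98.3% of symbols matched). CPM are counts per 1000000 after TMM scaling. Likeness used log2 CPM with a prior count of 2.

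Replicates 1 and 2 of the 4 groups deviated together in all 6 pairs of groups (r across genes 0.341 to 0.522). A principal component (the second, 14.1% of variance) separated the numbers. The pairing is thus seen in the data and not stated by the labels. Replicates differed by far more than sampling noise (chi-square per degree of freedom 43 to 111.4).

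Genes named are the 10 members, for each member the 3 genes most like it, from each list on WNT reception up to 4 genes with the smallest p between the wild type tissues and up to 3 between the genotypes in cushion, and Klf2 and Wnt9b as checks. The members and lists were chosen with earlier results of these data known. Gpr124 is also called Adgra2.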

Additional observations from a re-analysis of the deposited data

How the results depend on the processing

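In wild type cushion against ventricle 5 Frizzled genes were called, and 8 with the replicate block, 9 when block and GC and length correction were joined, 8 with the block without mutant cushion replicate 2, and between 1 and 6 with 1 library left out: 2 without wild type cushion replicate 1, 3 without wild type cushion replicate 2, 3 without wild type ventricle replicate 1 and 1 without wild type ventricle replicate 2. In mutants 3 were called, and 5 by DESeq2, 7 with the block, 6 with the block and the correction, 6 with the correction alone, 7 with the block without mutant cushion replicate 2, and between 1 and 4 with 1 library left out (1 without mutant cushion replicate 1). Fewer libraries also leave fewer degrees of freedom. For the correction alone and for the fits with a library left out, the share of all genes called is not given here. The member counts of those fits therefore cannot be set against it. Among the other fits the share of all genes called moved as well. In wild type it was 23.1%, and 41.4% with the block, with or without the correction. In mutants it was 9.42%, then 12.1% by DESeq2, 23.9% with the block and 31.8% with the block and the correction. The genotype contrasts and the interaction stayed at 0 in every alternative run. Directions turned only for values that were not called: after that correction, joined to the block or alone, Fzd9 in wild type tissues (-0.50 and -0.49) and in cushion genotypes (0.08 and 0.07), Fzd4 in mutant tissues (-0.02 in both), and in the interaction Fzd2 (0.14), Fzd3 (-0.09) and Fzd9 (0.27), and, without the block, Fzd5 in ventricle genotypes (-0.02). The cause of these turns was not tested. With the block and without mutant cushion replicate 2, Fzd9 in mutant tissues was 0.02, Fzd6 and Fzd8 in cushion genotypes 0.11 and -0.04, and Fzd6 in the interaction 0.09. Over these fits and those with 1 library left out, directions also turned, with log2 ranges, in wild type tissues for Fzd9 (-0.09 to 0.14); in mutant tissues for Fzd4 (-0.06 to 0.34), Fzd8 (-0.21 to 0.03) and Fzd9 (-0.41 to 0.02); in cushion genotypes for Fzd1 (-0.49 to 0.51), Fzd6 (-0.09 to 0.11), Fzd7 (-0.21 to 0.31) and Fzd8 (-0.06 to 0.17); in ventricle genotypes for Fzd1 (-0.29 to 0.09), Fzd2 (-0.22 to 0.11), Fzd3 (-0.60 to 0.06), Fzd4 (-0.35 to 0.08), Fzd5 (-0.08 to 0.16), Fzd6 (-0.10 to 0.15) and Fzd9 (-0.25 to 0.13); in the interaction for Fzd1 (-0.40 to 0.60), Fzd3 (-0.06 to 0.59), Fzd6 (-0.16 to 0.10), Fzd7 (-0.25 to 0.31) and Fzd10 (-0.37 to 1.88). Fzd3 in cushion genotypes (-0.20 to 0.14) and Fzd7 in ventricle genotypes (-0.24 to 0.31), whose edgeR differences rounded to 0.0, also took both signs. With 19 or fewer reads in a ventricle library, depth limits what can be said of Fzd10 there.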
